A study of Homo sapiens with 4 samples.

Results

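The 32 genes described here are transcriptional targets of the tumour suppressor p53, followed in HEK293T cells, a human embryonic kidney line. They were taken by name from a list of 32 p53 targets, and all 32 were found among the 62700 genes of the count table through their gene identifiers. All 32 had 10 or more counts in at least 2 of the 4 libraries, so none was lost to that filter, and all 32 entered the test across genes. The cells were a stable clone carrying CMV-V5-MITO-PRADA, a CMV-driven construct whose label places it in the mitochondrial matrix. Both groups, of 2 libraries each, came from cells kept for 5 h in 100 µM 4-thiouridine (s4U), a uridine analogue built into new RNA, and for a further 30 min in 0.5 mM alkyne phenol together with s4U. Labelling was started in 1 group by adding D-amino acid at 10 mM, again for 30 min. In the other group, called unlabelled, it was left out. Ribosomal RNA was depleted before library preparation. The series describes its material as labelled and enriched, so a level here is an abundance in these libraries and not necessarily in the whole cell, and cells without s4U were not analysed here. The titles call the libraries biological replicates but do not describe separate cultures. The p-values therefore reflect only the spread among the 4 libraries, which may be technical.

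p53 is a transcription factor that binds response elements near its target genes after DNA damage and other stress. Its targets stop the cell cycle, promote cell death, repair DNA, adjust metabolism and, through MDM2 and other inhibitors, limit p53 itself. In HEK293T cells the SV40 large T antigen, and an adenoviral E1B protein retained from the parental line, bind p53 and interfere with its activity.

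The response element is a pair of 10-base decamers, known as the p53 consensus. RefSeq promoter windows (GRCh38.p14), from 250 bases before to 50 bases after a gene start, were matched by symbol for 25 of the 32 genes, in 37 windows. A match was 20 bases, both decamers without a spacer, with at most 3 mismatches on either strand (the consensus reads the same on both). This rule was chosen after the data and the sequences were seen. A first search, which asked for the CNNG core of each decamer (A or T at each N) to be intact and at most 2 mismatches elsewhere, had missed MDM2, and the rule was then widened on both counts. Since it was widened to take in a target, the shares are a description only and support no difference between the targets and other genes. The first search found 2 of the 25 genes (AEN and FAS) and 0.201% of the 27305 genes with a window. Without the core condition, a limit of 1 mismatch found DDB2 alone and 0.121% of genes, a limit of 2 found 4 (AEN, DDB2, FAS and MDM2) and 0.82%, and the limit of 3 used here found 9 and 6.39%. The MDM2 window is shown because it holds 2 matches ahead of the inner promoter of the gene whose product restrains p53. The PMAIP1 window is shown because PMAIP1 had the highest level of the 32 genes per length of all counted exons (it came after CCNG1 when scaled by the longest transcript). Capitals mark the matches, both sequences lie on the plus strand, and each runs up to the start that defines its window. For MDM2 that start lies inside the gene, whose first base is 68808177. The MDM2 matches start at -94 and -56 with 2 and 3 mismatches, and the PMAIP1 match at -185 with 3. Counted from a second MDM2 window, the same 2 matches start at -101 and -63. The MDM2 window is chr12:68808767-68809016 and the PMAIP1 window is chr18:59899746-59899995.
MDM2: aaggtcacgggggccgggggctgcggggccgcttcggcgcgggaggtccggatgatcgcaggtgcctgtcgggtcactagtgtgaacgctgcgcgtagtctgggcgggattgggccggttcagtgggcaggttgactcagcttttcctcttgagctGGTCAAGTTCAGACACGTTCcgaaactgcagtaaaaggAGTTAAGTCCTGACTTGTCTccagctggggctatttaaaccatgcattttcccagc
PMAIP1: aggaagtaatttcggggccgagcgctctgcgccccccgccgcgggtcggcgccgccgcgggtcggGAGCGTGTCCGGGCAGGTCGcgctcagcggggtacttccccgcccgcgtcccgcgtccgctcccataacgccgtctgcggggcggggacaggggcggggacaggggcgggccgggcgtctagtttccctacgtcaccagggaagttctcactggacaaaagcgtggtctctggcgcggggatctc

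The other 7 genes with a match are given by the 20 matched bases alone, to show how the sites differ between targets. The DDB2 match had 1 mismatch, those of FAS and AEN had 2, and those of SESN1, FDXR, XPC and GDF15 had 3. Their first bases lay at -5 (DDB2), -122 (FAS), -34 (AEN), -49 (SESN1), -21 (FDXR), 13 (XPC) and 29 (GDF15). Positions are relative to the start that defines each window, base 1 being the first transcribed base there. That start need not be the outermost base of the gene.
DDB2: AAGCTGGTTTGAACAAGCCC
FAS: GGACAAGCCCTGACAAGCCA
AEN: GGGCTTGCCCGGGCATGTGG
SESN1: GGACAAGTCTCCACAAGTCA
FDXR: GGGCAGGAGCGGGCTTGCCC
XPC: GAATTTGCCCAGACAAGCAA
GDF15: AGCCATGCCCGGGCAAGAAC
A match describes these letters in this window and does not show that p53 bound there. For the remaining genes with a window, CDKN1A among them, the absence of a match covers only this window.

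The libraries held 5771795 to 12287451 assigned fragments, and unlabelled replicate 2 was the shallowest. Transcripts of the mitochondrial chromosome took 9.04% and 10.43% of unlabelled against 26.99% and 30.91% of labelled fragments. Counts were scaled by TMM (trimmed mean of M-values). The 32 genes together took 0.145% and 0.146% of assigned fragments in the unlabelled libraries and 0.134% and 0.117% in the labelled ones. The 95% Wilson intervals (counting error only) ran from 0.1426% to 0.1495% unlabelled and from 0.1148% to 0.1363% labelled. Of the fragments outside the mitochondrial chromosome they took 0.160% and 0.163% in unlabelled and 0.184% and 0.169% in labelled libraries. The order of the groups thus depended on whether mitochondrial fragments were counted. Of the 8 markers fixed for the line, LIN28B stood at 113 to 142 CPM (counts scaled to library depth by TMM) and VIM at 179 to 216 CPM. The 8 summed to 339 to 409 CPM, of which LIN28B and VIM made up most. The blood markers CD3E and HBB and the fibroblast markers COL1A2 and DCN had 0 counts in all 4 libraries. The 8 blood markers summed to 10.5 to 15.4 CPM, and the 8 fibroblast and endothelium markers to 13.0 to 21.1 CPM, mostly COL1A1.

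Regulators and relatives of p53 were read from the same libraries. MDM4, a p53 inhibitor related to MDM2, stood at 134 and 155 CPM unlabelled against 154 and 145 CPM labelled, and the groups overlapped. CDKN2A, TP73 and TP63 were picked after their values were seen. CDKN2A, which encodes the MDM2 inhibitor ARF as well as p16, reached 80.6 ± 20.7 FPKM (fragments per kilobase of exon, scaled to library depth by TMM; SD, n = 2) in unlabelled libraries. Of the p53-related transcription factors, TP73 stood at 6.52 ± 0.0161 FPKM, and TP63 had 0 counts in each library, where 3 counts would be 0.244 to 0.520 CPM of assigned fragments.

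The 32 targets spanned a 205-fold range per length in the unlabelled libraries, from 0.267 to 54.6 FPKM. Their median was 5.11 FPKM, against 3.86 FPKM over the 18973 genes tested. In the ranking of all genes tested, 20 of the 32 lay above the median, 10 above the 75th percentile and 5 below the 25th. High and low targets were found in most of the roles, as the plot of levels by library shows.

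**Figure D1:**
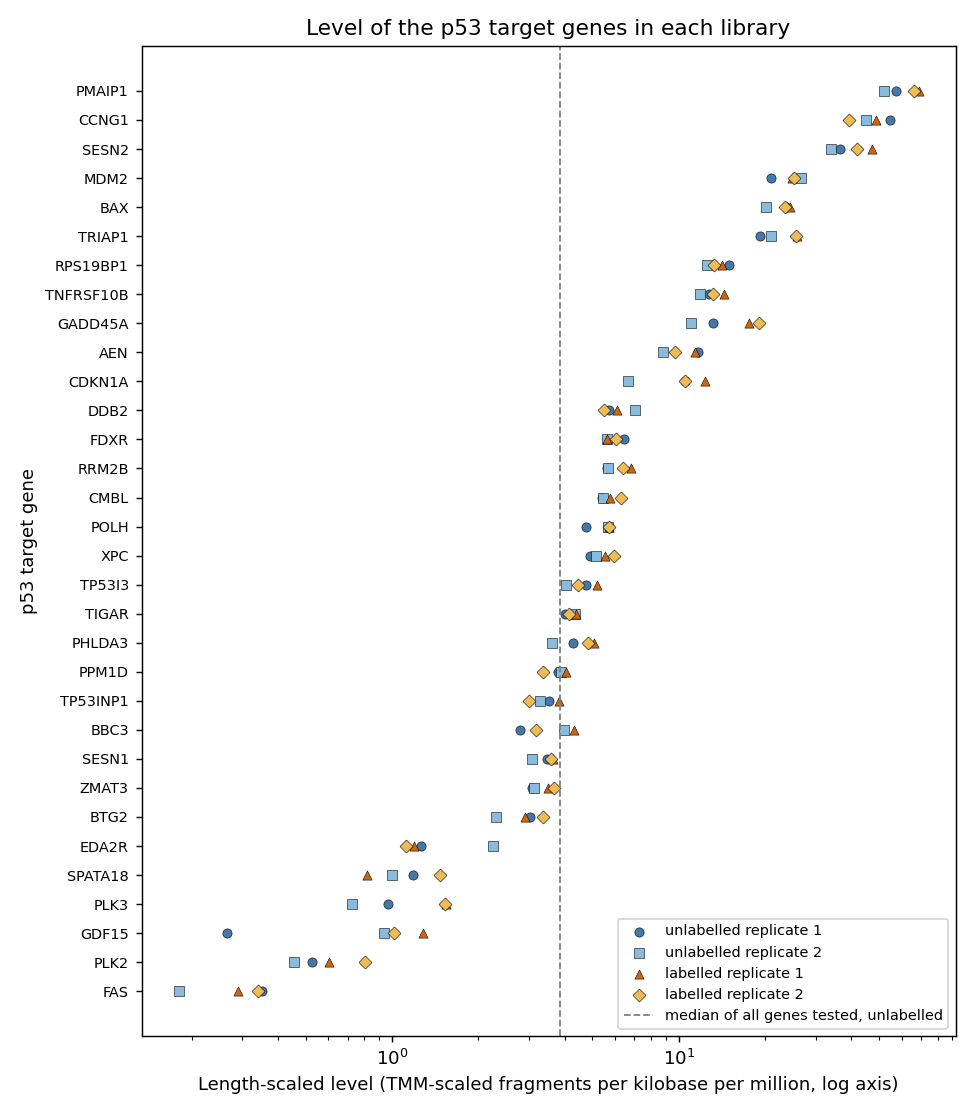
Level of each of the 32 p53 target genes in the 4 libraries, as TMM-scaled FPKM on a log axis, ordered by the unlabelled mean; each marker is 1 library and the dashed line is the median of all genes tested in unlabelled libraries (3.86). PMAIP1 lies at the top at 51.9 to 68.6 and FAS at the bottom at 0.180 to 0.353, and for most genes the 4 markers lie close together beside the distance between genes.

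Of the highest targets, PMAIP1 (NOXA, a BH3-only protein that promotes apoptosis) and CCNG1 (cyclin G1, which acts with a phosphatase on MDM2) led the order. PMAIP1 stood at 54.6 ± 3.86 FPKM and CCNG1 at 49.7 ± 6.83 FPKM in unlabelled libraries (SD, n = 2), and their ranges overlapped. SESN2 (sestrin 2, an inhibitor of mTORC1 signalling) followed at 35.3 ± 1.72 FPKM, below both in each unlabelled library. MDM2 at 23.8 ± 4.07 FPKM, BAX at 21.9 ± 2.51 FPKM and TRIAP1 at 20.1 ± 1.20 FPKM came next, and their ranges overlapped in turn. RPS19BP1 at 13.8 ± 1.73 FPKM, TNFRSF10B at 12.3 ± 0.637 FPKM and GADD45A at 12.1 ± 1.51 FPKM began another run of overlapping neighbours. The run went on through AEN at 10.2 ± 2.04 FPKM to CDKN1A.

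CDKN1A (p21, the inhibitor of cyclin-dependent kinases through which p53 arrests the cell cycle) was not among the highest. Its unlabelled libraries stood at 10.6 and 6.65 FPKM, rank 11 of the 32. It lay above 74.2% of genes tested. From DDB2 at 6.38 ± 0.930 FPKM down to ZMAT3 at 3.11 ± 0.0445 FPKM, 14 genes followed each other closely, and many neighbours there had overlapping ranges.

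The lowest 6 targets were EDA2R, SPATA18, PLK3, GDF15, PLK2 and FAS, at 1.76 ± 0.700, 1.09 ± 0.131, 0.848 ± 0.173, 0.603 ± 0.476, 0.491 ± 0.0514 and 0.267 ± 0.122 FPKM in unlabelled libraries (SD, n = 2). FAS (the death receptor CD95) depends for its place on the length used, since the exons counted for it cover 29313 bases while its longest protein-coding transcript in GENCODE 29 has 2563. Scaled by that transcript, a setting added after the data were seen, FAS reached 3.05 FPKM and rank 26 in place of 32. By the same change RPS19BP1 moved from rank 7 to rank 3, MDM2 from rank 4 to rank 9, and CCNG1 (62.6 FPKM) came before PMAIP1 (61.3 FPKM). With this scaling the median of the 32 genes was 9.22 FPKM. The median over all genes is not given by this scaling, so 9.22 is not comparable with the 3.86 FPKM above. The ranks of the 32 genes under the 2 scalings had a Spearman rho of 0.95, over genes that share all libraries.

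Labelled and unlabelled libraries were then compared in 1 edgeR fit across all genes. Whether the unlabelled libraries went through the same enrichment as the labelled ones is stated in no label, so a difference in capture and a difference between enriched and unenriched RNA cannot be told apart. None of the 32 passed an adjusted p under 0.05 in edgeR's quasi-likelihood test, where 0.285% of the 18973 genes tested passed, 51 higher (0.269%) and 3 lower (0.0158%) in labelled libraries (69 and 2675 when scaled by library size alone). DESeq2 also passed 0 of the 32, against 0.389% of the 19547 genes it gave an adjusted p. At an unadjusted p under 0.05 edgeR had 5 of 32 against 11.5% of genes tested, all 5 higher (5.67% of genes tested) and 0 lower (5.88%). The 5 were GADD45A, PLK3, SESN2, PMAIP1 and TRIAP1. DESeq2 had 3 of 32 in either direction at that limit, against 2.03% of 39689 genes. That wider set was not filtered for low counts, so its share is not comparable with the share among the 32 or with edgeR's.

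By TMM, 25 of the 32 had a log2 fold change above 0, where 48.0% of genes tested did, and the median was 0.16 against -0.01 over all genes. Scaled by library size alone, 6 of the 32 were above 0 and the median was -0.20, where 9.69% of all genes were above 0 and their median was -0.37. A change of scaling moves all genes by nearly the same amount. The distance from the median of all genes, 0.17 under either scaling, is therefore no separate check. Groups were separate for 17 of the 32, against 44.6% of genes tested. The labelled libraries lay wholly above the unlabelled ones for 16 genes, against 22.2% of genes tested, and wholly below for 1, against 22.4%. For 2 of the 16 the gap was marginal, at 31.6 against 31.7 CPM for CDKN1A and 47.4 against 47.7 CPM for POLH between the nearest libraries. A log2 fold change of at least 0.5 was seen for 4 (GADD45A, GDF15, PLK2 and PLK3), against 4.49% of genes tested, and of -0.5 or lower for EDA2R alone, against 10.6%. For 19 of the 32, against 43.7% of genes tested, the 95% interval of the TMM-scaled fold change lay within 1.5-fold either way. A larger difference between the groups was outside the interval for these, under that scaling only. With library size alone the values moved down, among these genes to -0.53 for CCNG1 and -0.49 for DDB2.

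**Figure D2:**
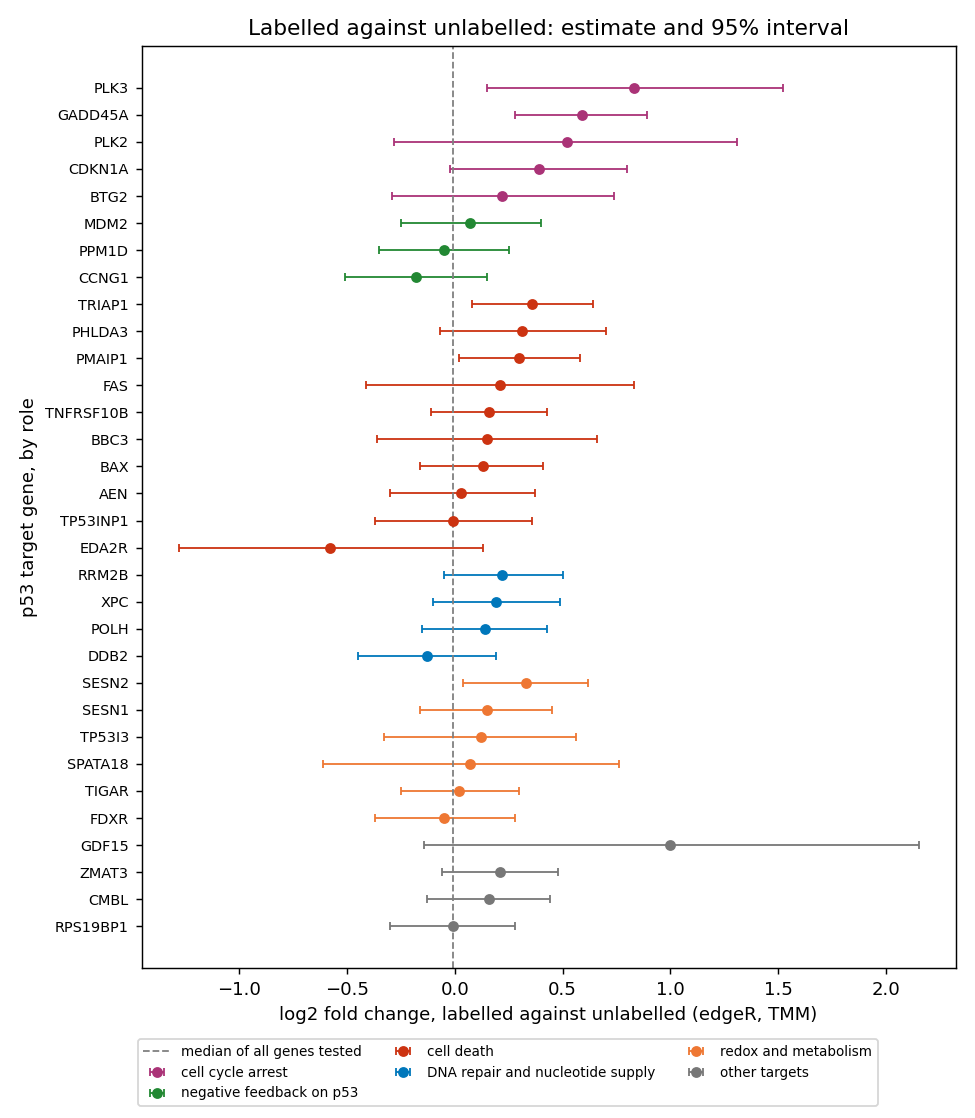
Log2 fold change of labelled against unlabelled libraries for the 32 p53 target genes (points, edgeR with TMM) with 95% intervals (bars), coloured and grouped by role; the dashed line is the median of all genes tested (-0.01). The 5 cell cycle arrest genes lie at 0.22 to 0.83 and the 3 feedback genes at -0.18 to 0.07, and the widest interval is that of GDF15 (-0.14 to 2.15); scaled by library size alone, 19 of the 25 positive values turn negative.

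The genes of the feedback loop had the role median nearest to 0, at -0.05. MDM2 (ENSG00000135679, chromosome 12, 68808177 to 68845544), the ubiquitin ligase that marks p53 for degradation and whose inner promoter is printed above, stood at 174 and 222 CPM unlabelled against 206 and 210 CPM labelled. Both labelled values lay between the unlabelled ones. Its log2 fold change was 0.07 ± 0.15 (SE; 95% interval -0.25 to 0.40; edgeR adjusted p 0.888). CCNG1 stood at 169 and 139 CPM unlabelled against 151 and 121 CPM labelled, so the groups overlapped. Its log2 fold change was -0.18 ± 0.15 (SE, edgeR adjusted p 0.669). PPM1D (WIP1, a phosphatase that reverses p53 phosphorylation) had a log2 fold change of -0.05, with unlabelled values of 35.6 and 36.5 CPM inside the labelled range of 31.7 to 38.1 CPM. CCNG1 passed as lower when leaving out unlabelled replicate 2 (-0.31, edgeR adjusted p 0.0412) and with library size alone (-0.53, adjusted p 0.0406).

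Among the 5 cell cycle arrest genes the median log2 fold change was 0.52, and each of the 5 was above 0. GADD45A (ENSG00000116717, chromosome 1, 67685201 to 67688334), a stress sensor that binds PCNA and CDK1, had the smallest p of the 32 genes. Its unlabelled libraries stood at 25.4 and 21.3 CPM and its labelled libraries at 33.8 and 36.6 CPM. The groups did not overlap, the log2 fold change was 0.59 ± 0.14 (SE; 95% interval 0.28 to 0.89) and the edgeR adjusted p was 0.161. It passed when either unlabelled library was left out, replicate 1 (0.76, adjusted p 1.07e-05) or replicate 2 (0.48, adjusted p 0.0110), and with no filter on low counts (0.61, adjusted p 0.0290). With library size alone it was 0.23 (adjusted p 0.256), and DESeq2 gave 0.62 (adjusted p 0.730).

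CDKN1A (ENSG00000124762, chromosome 6, 36676460 to 36687337) stood at 31.6 and 19.9 CPM unlabelled against 37.1 and 31.7 CPM labelled. Unlabelled replicate 2 was the low library, and unlabelled replicate 1 equalled labelled replicate 2 to within counting error. The log2 fold change was 0.39 ± 0.19 (SE; 95% interval -0.02 to 0.80; edgeR adjusted p 0.451). It was 0.81 (adjusted p 3.71e-06) without unlabelled replicate 1 and 0.12 (adjusted p 0.699) without unlabelled replicate 2, so 1 unlabelled library decided its size.

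PLK3 and PLK2, polo-like kinases of the stress response, were near the bottom of the range. PLK3 had 29 and 16 counts in unlabelled and 44 and 53 in labelled libraries, or 3.23 and 2.41 against 5.13 and 5.10 CPM. Its groups did not overlap, and its log2 fold change was 0.83 ± 0.32 (SE; edgeR adjusted p 0.364), or 1.11 (adjusted p 0.0328) without unlabelled replicate 1. PLK2 had 22 and 14 counts against 24 and 39. Its log2 fold change of 0.52 ± 0.37 (SE) had an interval from -0.28 to 1.31, and the exact Poisson intervals of its libraries (95%, counting error only) all overlapped, from 1.16 to 3.71 CPM in unlabelled and 1.79 to 5.13 CPM in labelled libraries. BTG2, an antiproliferative factor, stood at 8.35 and 6.34 CPM against 8.05 and 9.24 CPM, and its groups overlapped.

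The 10 genes of cell death had a median log2 fold change of 0.16, from -0.58 to 0.36. PMAIP1 (ENSG00000141682, chromosome 18, 59899996 to 59904305), whose promoter is printed above, stood at 125.4 and 113.5 CPM unlabelled against 150.0 and 144.1 CPM labelled. Its groups did not overlap, and its log2 fold change was 0.30 ± 0.13 (SE; 95% interval 0.02 to 0.58; edgeR adjusted p 0.412). It was 0.40 (adjusted p 0.00191) without unlabelled replicate 1 and 0.23 (adjusted p 0.195) without unlabelled replicate 2. TRIAP1 (chromosome 12, 120443964 to 120446384), an inhibitor of apoptosis in the mitochondrial intermembrane space, stood at 27.2 and 29.6 against 36.5 and 36.3 CPM. Its groups did not overlap either, at a log2 fold change of 0.36 ± 0.13 (SE; edgeR adjusted p 0.334). TRIAP1 passed with unlabelled replicate 2 left out (0.43, adjusted p 0.0258). Both PMAIP1 and TRIAP1 lay at -0.05 and 0.01, in that order, with library size alone.

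BAX and BBC3, the pore-forming executioner of apoptosis and the BH3-only protein PUMA, had overlapping groups. BAX (chromosome 19, 48954815 to 48961798) stood at 61.3 and 52.1 CPM unlabelled against 63.4 and 60.5 CPM labelled, a log2 fold change of 0.13 ± 0.13 (SE). BBC3 (chromosome 19, 47220822 to 47232766) stood at 8.91 and 12.7 CPM against 13.8 and 10.1 CPM. Its log2 fold change was 0.15 ± 0.23 (SE), and its replicates differed by 0.51 and -0.45 on the log2 scale, more than the groups did.

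The receptors among the cell death genes had values on both sides of 0. TNFRSF10B (DR5) stood at 63.8 and 59.3 CPM unlabelled against 72.0 and 66.1 CPM labelled, without overlap, at a log2 fold change of 0.16 ± 0.12 (SE; edgeR adjusted p 0.638). FAS stood at 10.4 and 5.28 against 8.51 and 10.0 CPM, and its unlabelled replicate 2 was the low library. EDA2R, a receptor for ectodysplasin on the X chromosome (66595637 to 66639298), was the 1 gene whose labelled libraries lay below both unlabelled ones, at 4.31 and 4.04 against 4.57 and 8.15 CPM. Its log2 fold change of -0.58 ± 0.32 (SE; edgeR adjusted p 0.517) rested on unlabelled replicate 2, for it was -0.13 without that library and -0.93 (adjusted p 0.0145) without unlabelled replicate 1. With unlabelled replicate 1 left out, FAS passed as higher (0.85, adjusted p 0.0181), and it lay at -0.15 without unlabelled replicate 2. The remaining genes of the group were PHLDA3, an inhibitor of AKT, at 0.31, AEN, an apoptosis-enhancing nuclease, at 0.03, and TP53INP1, which links p53 to autophagy, at -0.01.

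The 4 genes of DNA repair and nucleotide supply lay between -0.13 and 0.22 on the log2 scale. RRM2B, the p53-induced subunit of ribonucleotide reductase, stood at 30.4 and 30.5 CPM unlabelled against 36.6 and 34.4 CPM labelled. XPC, which recognises damage for nucleotide excision repair, stood at 22.7 and 23.8 against 25.7 and 27.5 CPM, and exons on the opposite strand share 24.6% of its exon bases. For both genes the groups did not overlap, with edgeR adjusted p-values of 0.526 for RRM2B and 0.605 for XPC. DDB2, the other damage sensor of that pathway, overlapped at 27.7 and 34.1 against 29.6 and 26.7 CPM. POLH, the translesion polymerase eta, had a log2 fold change of 0.14.

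Of the 6 genes of redox and metabolism, SESN2 (chromosome 1, 28259518 to 28282491) had the most positive log2 fold change. It stood at 126 and 118 CPM unlabelled against 163 and 145 CPM labelled, without overlap. Its log2 fold change was 0.33 ± 0.13 (SE; 95% interval 0.04 to 0.62; edgeR adjusted p 0.382). It was 0.41 (adjusted p 0.00151) without unlabelled replicate 1, 0.29 (adjusted p 0.0810) without unlabelled replicate 2 and -0.02 with library size alone. Its paralogue SESN1 had 0.15, at 25.2 and 22.3 against 26.6 and 26.2 CPM. The other 4 genes had overlapping groups and lay at -0.05 to 0.12. They were the quinone oxidoreductase TP53I3, the fructose bisphosphatase TIGAR, and FDXR and SPATA18, which act in the mitochondrion as a ferredoxin reductase and in its quality control. SPATA18 varied most between labelled replicates, at 4.08 and 7.31 CPM.

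GDF15, a secreted stress cytokine, showed the most positive log2 fold change among the 32 and among the fewest counts. It had 5 and 13 counts in unlabelled and 23 and 22 in labelled libraries, or 0.557 and 1.96 against 2.68 and 2.12 CPM. The exact Poisson interval of unlabelled replicate 2 (1.04 to 3.35 CPM, 95%, counting error only) covered both labelled values. That of unlabelled replicate 1 (0.181 to 1.30 CPM) covered neither and lay below both labelled intervals, which began at 1.70 and 1.33 CPM. The log2 fold change was 1.00 ± 0.53 (SE; edgeR adjusted p 0.486), and it was 2.07 (adjusted p 0.0290) without unlabelled replicate 2 and 0.31 (adjusted p 0.710) without unlabelled replicate 1. ZMAT3, an RNA-binding protein, stood at 34.8 and 35.5 against 39.7 and 41.6 CPM. The hydrolase CMBL stood at 26.3 and 26.6 against 28.1 and 30.7 CPM, and for both genes the groups did not overlap. RPS19BP1, a regulator of the deacetylase SIRT1, overlapped at 55.1 and 46.2 against 52.1 and 48.7 CPM.

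The unlabelled replicates differed more than the labelled ones for these genes. The median absolute log2 difference between replicates of the 32 genes was 0.24 in unlabelled and 0.117 in labelled libraries, against 0.268 and 0.145 over all genes tested. The largest differences were 1.82 for GDF15 in unlabelled and 0.84 for SPATA18 in labelled libraries. The 4 possible pairs of a labelled with an unlabelled library gave medians of 0.15 to 0.26 over the 32 genes, and the higher 2 were those with unlabelled replicate 2. Without unlabelled replicate 1, 6 of the 32 passed as higher and 1 as lower, where 11.6% and 7.37% of genes tested did (19.0% in all), and the median was 0.25. Without unlabelled replicate 2, 3 passed as higher and 1 as lower, where 2.06% and 2.55% did (4.61% in all), and the median was 0.12. GADD45A was the 1 gene of the 32 that passed in both. With 1 unlabelled library, that library is assumed to vary like the labelled ones. Scaled by library size alone, 0 passed as higher and 1 (CCNG1) as lower, where 0.364% and 14.1% of all genes did (14.5% in all). With no filter on low counts GADD45A alone passed, as higher, where 0.461% of genes did, and 0 passed as lower, where 0.3% did (0.761% in all). The remaining scalings, filters and omitted libraries passed 0 of the 32, against 0.3% of genes with RLE size factors, 0.157% with mitochondrial genes left out, 0.285% with 10 counts in 2 libraries, and 0.449% and 0.279% without labelled replicate 1 and 2. The part of either unlabelled library in these values was not tested beyond leaving it out.

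**Figure D3:**
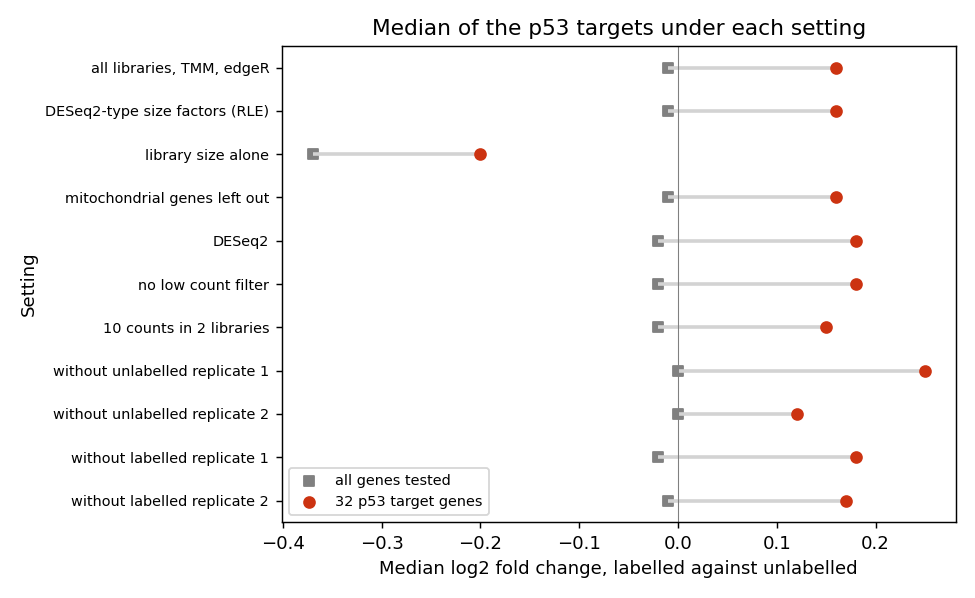
Median log2 fold change of labelled against unlabelled libraries for the 32 p53 target genes (circles) and for all genes tested (squares) under each scaling, filter, test or set of libraries. The targets lie to the right of all genes in each setting drawn, by 0.12 to 0.26, and with library size alone both medians are negative (-0.20 and -0.37). A change of scaling alone moves both medians together, so their distance under it is no separate check.

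Genes around the 32 targets were read from the same fit, with no test of a difference between lists. Over all genes tested, 48.0% lay above 0, 0.285% passed the threshold, and 5.67% were higher and 5.88% lower at an unadjusted p under 0.05. Of 67 other p53-activated genes 61 were tested, with a median log2 fold change of 0.09, 38 above 0 (62.3%) and 0 past the edgeR threshold. At an unadjusted p under 0.05, 3 were higher (4.92%) and 3 lower (4.92%), both below the shares over all genes. LIF, a cytokine, had the smallest p in that list, with 18 and 18 counts in unlabelled and 6 and 8 in labelled libraries, a log2 fold change of -1.64 ± 0.46 (SE; edgeR adjusted p 0.259). It passed as lower with unlabelled replicate 1 left out (-1.83, adjusted p 0.0174) and with library size alone (adjusted p 0.0237).

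Of 30 p53 regulators 29 were tested, with a median of 0.10, 18 above 0 (62.1%) and 0 past the threshold. At an unadjusted p under 0.05, 4 were higher (13.8%) and 1 lower (3.45%). PPP1R13L (iASPP, an inhibitor of p53) stood at 9.91 and 10.1 CPM unlabelled against 17.02 and 15.78 CPM labelled. Its log2 fold change was 0.71 ± 0.18 (SE), with an edgeR adjusted p of 0.199. It did not pass with library size alone (0.36, edgeR adjusted p 0.206) or in DESeq2 (0.74, adjusted p 0.928). Leaving out labelled replicate 1 or 2 gave 0.68 or 0.78, and leaving out unlabelled replicate 1 or 2 gave 0.72 or 0.73. PPP1R13L passed with no filter on low counts (0.74, edgeR adjusted p 0.0364). RFFL, a ubiquitin ligase reported to act on p53, had 0.60 ± 0.21 (SE; adjusted p 0.326), or 0.75 (adjusted p 0.0223) with unlabelled replicate 2 left out, and other genes share 57.8% of its exon bases. RFFL did not pass with library size alone (0.24, edgeR adjusted p 0.440), and lay at 0.47 with unlabelled replicate 1 left out. MDM4 had 0.05 ± 0.13 (SE), with an edgeR adjusted p of 0.919.

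The 38 cell cycle genes that p53 represses through p21 and the DREAM complex, all tested, had a median of 0.16, with 32 above 0 (84.2%) and 0 past the threshold. At an unadjusted p under 0.05, 4 were higher (10.5%) and 0 lower. PLK1, the mitotic polo-like kinase, stood at 128.5 and 100.6 CPM unlabelled against 141 and 183 CPM labelled, a log2 fold change of 0.50 ± 0.16 (SE; edgeR adjusted p 0.309). Leaving out unlabelled replicate 1 or 2 gave 0.72 or 0.34, and leaving out labelled replicate 1 or 2 gave 0.69 or 0.31. PLK1 did not pass with library size alone (0.14, edgeR adjusted p 0.473) or in DESeq2 (0.53, adjusted p 0.647). KIF23, a kinesin of cytokinesis, had 0.35 ± 0.12 (SE; adjusted p 0.330), or 0.41 (adjusted p 0.00310) with unlabelled replicate 1 left out. With library size alone the medians of the 3 lists were -0.27, -0.26 and -0.20, beside -0.37 for all genes. The scaling moved the lists and all genes together, so their order is no separate check.

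**Figure D4:**
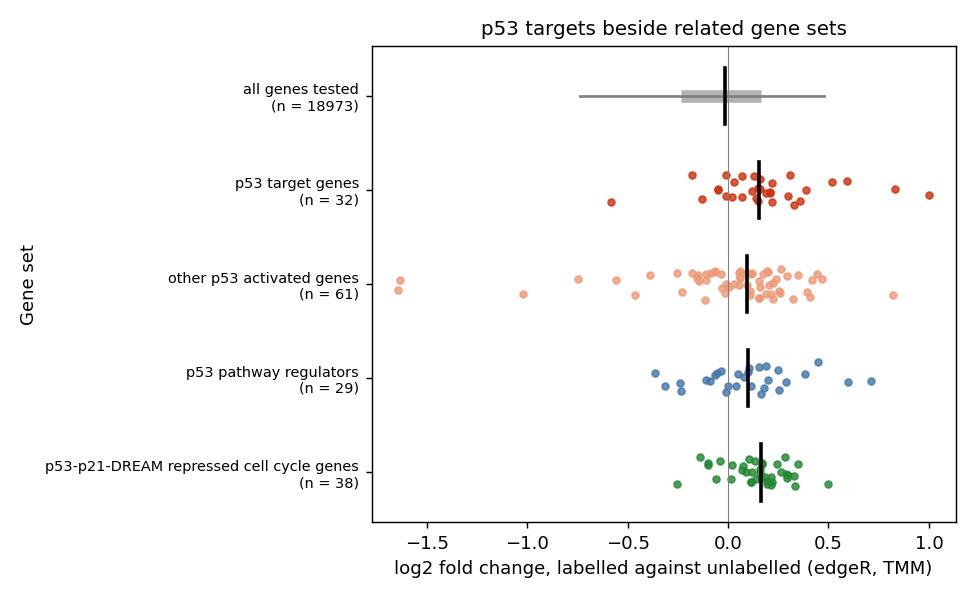
Log2 fold change of labelled against unlabelled libraries (edgeR with TMM) for the 32 p53 target genes and 3 related lists (points, 1 per gene, spread vertically for visibility), with the median of each set as a black bar; for all 18973 genes tested the thick grey line spans the 25th to 75th percentile (-0.23 to 0.17) and the thin line the 5th to 95th (-0.74 to 0.48). The set medians are 0.16, 0.09, 0.10 and 0.16 from top to bottom, all inside the thick grey line, and with library size alone they turn negative, as does that of all genes.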

How the data were processed

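Whole-number fragment counts per gene from 4 HEK293T libraries were used as deposited. Per the file headers, the authors counted them with featureCounts 1.6.4 on GENCODE 44, over exons summed by gene, for read pairs with both ends mapped, without chimeric pairs and with no strand or multi-mapping option. Fragments touching 2 genes on either strand thus stay unassigned, and exons of 13 of the 32 targets share bases with another gene. The share was over 10% of exon bases for 4 targets, XPC (24.6%), TIGAR (19.4%), PHLDA3 (18.4%) and MDM2 (14.7%). Per the submitters' processing notes, the aligner was STAR 2.7.9a, the build GRCh38 and a later tool DESeq2 1.42.0. A second deposited table gives counts of alignment records by status.

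Gene symbols were found for all identifiers. Counts were tested with edgeR 4.0.16 (quasi-likelihood, filterByExpr, TMM) in R 4.3.3, with all 4 libraries in 1 fit, p-values adjusted by Benjamini-Hochberg over 18973 genes, and 0.05 as the threshold. SE is the log2 fold change divided by the root of F. DESeq2 1.42.0, other scalings and filters, a replicate block and leaving out each library were alternatives. The script was tested on simulated data. Intervals for shares are 95% Wilson intervals (SciPy 1.17.1), which cover counting error only.

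The 32 targets, the lists and the tests were chosen with earlier results of these data known. The text gives per-library values for the 8 targets with the highest length-scaled level, the 5 largest log2 fold changes in each direction among those without overlap and a mean of at least 1 CPM, any past the threshold, and CDKN1A, MDM2, BAX, BBC3, PMAIP1 and GDF15. It gives MDM4, and in each list the 2 genes with the smallest p, except that some genes this rule names, and a marker, are not reported here. Other targets are given more briefly, and their values in each library are shown where groups or roles are described.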

Additional observations from a re-analysis of the deposited data

How the results depend on the processing

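The 32 targets held 0 calls with RLE size factors, with mitochondrial genes left out, with DESeq2, with the filter of 10 counts in 2 libraries, and without either labelled library. They held 1 higher call (GADD45A) with no filter and with the replicate block (log2 fold change 0.59, edgeR adjusted p 0.0331, where 0.738% of all genes were called higher), and 1 lower call (CCNG1) with library size alone. Leaving out 1 library gave 0 to 6 higher and 0 to 1 lower calls among the targets, 0 to 37 higher and 0 to 9 lower among the 128 tested genes of the 3 lists, and 49 to 2440 higher and 9 to 1545 lower among all genes. The lists held 1 higher call with no filter and 15 lower with library size alone. All genes gave 27 higher with mitochondrial genes left out, 183 higher and 119 lower with no filter, 140 higher and 96 lower with the replicate block, and 5, 12 and 2675 lower with RLE, DESeq2 and library size alone. The replicate numbers are not stated to pair cultures, and deviations of same-numbered libraries correlated at -0.0698 across genes. The block changed no other call among the targets. The median of the targets was -0.20 with library size alone and 0.12 to 0.25 with 1 library left out.

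The median level was 5.75 FPKM without TMM factors and 9.22 by longest transcript, and the targets took 0.1615% of unlabelled and 0.1762% of labelled fragments outside the mitochondrial chromosome. With library size alone the sign turned for MDM2 -0.29, BBC3 -0.20, BAX -0.23, PMAIP1 -0.05, FAS -0.14, TNFRSF10B -0.19, ZMAT3 -0.15, SESN1 -0.21, SESN2 -0.02, TP53I3 -0.23, RRM2B -0.13, XPC -0.16, POLH -0.22, AEN -0.31, TIGAR -0.33, PHLDA3 -0.04, BTG2 -0.13, SPATA18 -0.29, CMBL -0.20, MDM4 -0.31, KIF23 -0.01. With DESeq2 it turned for TP53INP1 0.03, RPS19BP1 0.02, and with no filter for TP53INP1 0.02, RPS19BP1 0.02. With 1 library left out the range crossed 0 for MDM2 -0.06 to 0.26, BBC3 -0.07 to 0.41, FAS -0.15 to 0.85, TP53INP1 -0.16 to 0.17, DDB2 -0.25 to 0.02, AEN -0.15 to 0.29, TIGAR -0.01 to 0.09, FDXR -0.13 to 0.09, PPM1D -0.17 to 0.09, SPATA18 -0.41 to 0.44, RPS19BP1 -0.13 to 0.15, MDM4 -0.02 to 0.16. None of these sign changes was a call at an adjusted p under 0.05, and their cause was not tested beyond the setting itself. Depth limits GDF15, PLK2 and PLK3 most, with 5 to 53 counts in a library.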
